A study of Mus musculus with 8 samples.

Results

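Gene expression at embryonic days 12 (E12) and 8.5 (E8.5) was compared between mouse embryos that lacked Runx1. The comparison used the 2 arrays labelled E12 ko and the 2 labelled E8.5 ko, which are 4 of the 8 one-colour Affymetrix arrays of the study. The other 4 are wild-type arrays, 2 at each stage. Their levels are given where the stage change of the knockout is set beside that of normal embryos. They also entered the fit of all 8 arrays behind each call, and the choice of 1 probe set per gene. Total RNA came from the embryo proper of mice kept on a BALB/c background. The knockout groups carried a germline disruption of Runx1 in every cell, and no other allele or treatment is named for any group. Whether RNA from more than 1 embryo was combined for an array is not given in the sources used here, and the study describes its replicates as biological. Each standard error (SE) and p-value pools the spread between replicates over all 4 groups, wild type included, and covers these arrays only. A fit without 1 knockout array leaves 1 array in that group and takes its spread from the other groups. RNA was taken from the whole embryo proper, so fewer cells of a type and less RNA per cell cannot be told apart.

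Runx1 encodes the DNA-binding subunit of the core binding factor. It is needed for the emergence of definitive blood stem cells from the wall of embryonic vessels, while the first, primitive red cells of the yolk sac form largely without it, and embryos without Runx1 die around midgestation with haemorrhages in the central nervous system. Between these stages a mouse embryo passes from early somites and a closing neural tube to differentiating neurons, muscle, cartilage and limbs, and the liver becomes the site of blood formation.

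The arrays of the 2 stages did not share a scale. The 99th percentile of log2 intensity was 12.24 and 12.30 in the E8.5 knockout arrays and 10.72 and 10.88 in the E12 knockout arrays, whereas the medians were 4.99 and 4.98 against 5.2 and 5.2. When the 18193 genes (1 probe set each) were split by their mean rank in the knockout arrays into 10 bins that divide the probe sets evenly, a split chosen after values were seen, the median difference in log2 intensity was 0.363 in bin 5 and -1.092 in bin 10, the brightest. The median difference in rank was 3.82 percentile points in bin 5 and -0.034 in bin 10. As the bins were made from mean ranks over both stages, the rank difference in bin 10 was bounded by the split. Probe sets of the array's own controls for beta-actin and Gapdh, which were left out of all tests, differed by -1.11 to -1.85 at E12 on the log2 scale. For this reason each gene is also described by its percentile rank among all probe sets of its own array, from 0 (dimmest) to 100 (brightest). A gene is said to have risen or fallen where limma called its difference in log2 intensity at a Benjamini-Hochberg adjusted p below 0.05, and a gene called "on both scales" was also called, in the same direction, when the ranks were fitted in place of the intensities. That second call was added after the values had been seen.

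**Figure D1:**
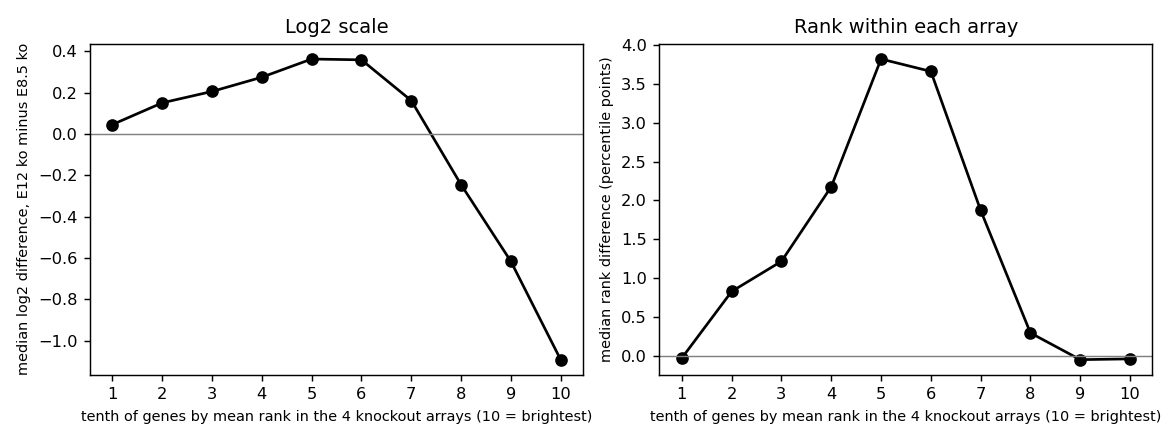
Median difference between E12 and E8.5 knockout arrays for genes in 10 bins of mean rank (x axis, 10 = brightest), in log2 intensity (left) and in percentile rank (right). The brightest bin lies at -1.092 in log2 intensity and at -0.034 in rank. The bins were made from mean ranks over both stages, which bounds the rank difference in the brightest bin.

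The targeted gene itself was not informative about the disruption in this comparison, because the position of the probes relative to the deleted sequence is not known here. The brightest of its 6 probe sets read 6.41 and 6.86 in the E8.5 knockout arrays and 7.10 and 6.86 in the E12 knockout arrays (log2 intensity). That difference of 0.35 ± 0.28 (SE, n = 2 arrays a stage) was not called (limma adjusted p = 0.405). A second Runx1 probe set read 6.09 and 6.33 at E8.5 and 4.09 and 4.27 at E12, and fell by 2.02 on the log2 scale (limma adjusted p = 0.0013). In wild type the same probe set changed by -0.77.

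Replicate arrays of the knockout were close to each other. Across all probe sets, which are not independent replicates, the correlation was r = 0.983 between the E8.5 replicates and 0.992 between the E12 replicates, with an SD of their difference of 0.403 and 0.227 on the log2 scale. The wild-type pairs were more spread, with SDs of 0.833 and 0.490. The knockout embryos were not matched for sex. Xist, expressed from the inactive X chromosome of females, read 5.93, 6.04 and 5.33 in both E8.5 knockout arrays and E12 ko 1, against 10.33 in E12 ko 2. The Y-linked Eif2s3y read 9.05, 8.96 and 8.06 in those 3 arrays and 2.68 in E12 ko 2. One wild-type array stood apart for tissue content. The summed linear intensity of 30 trophoblast and decidua genes was 43062 in E8.5 wt 1 and 984 to 5029 in the other 7 arrays.

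In knockout embryos 11539 of 45037 probe sets differed between stages, 5208 higher and 6331 lower at E12. The share of calls that were higher was 45.1% on the log2 scale, 52.5% after quantile normalization over all arrays and 28.3% with array medians set equal, so the balance of directions depends on the scaling. By gene, 2506 of 18193 (13.8%) rose and 3322 (18.3%) fell. On both scales 1715 genes (9.43%) rose and 1012 (5.56%) fell. Of the 3322 genes that fell on the log2 scale, 1324 were in bin 10 by rank and 886 in bin 9.

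The genes with the greatest increases on the log2 scale marked several tissues at once. The first 10 by size were Zic1, Alb, Hemgn, Serpina6, Col3a1, Dcx, Myh3, Nefm, Synpo and Bcl11b. Zic1, a zinc finger factor of the dorsal neural tube, read 2.87 and 2.99 at E8.5 and 9.47 and 9.72 at E12. It rose by 6.66 ± 0.40 (SE, n = 2 arrays a stage, adjusted p = 0.000611), from percentile 0.711 to 96.5. Alb, which encodes serum albumin of hepatocytes, read 4.52 and 4.27 at E8.5 and 10.46 and 11.26 at E12, an increase of 6.46 ± 0.28 (adjusted p = 0.000236). These genes, and the 10 decreases that follow, were taken from called genes whose arrays did not overlap between stages. The separation of their arrays was therefore set by the choice. The 10 with the greatest decreases were Cubn, Phlda2, Lin28a, Trap1a, Car4, Amn, Apob, Rhox5, Slc2a2 and Spink1. Cubn, a receptor for protein uptake in visceral endoderm, read 13.29 and 13.35 at E8.5 and 4.26 and 3.93 at E12. It fell by 9.23 on the log2 scale (SE 0.18, adjusted p = 4.2e-05), from percentile 99.7 to 20. All of these calls were kept when any 1 knockout array was left out, other than that of Hemgn, whose adjusted p was 0.0522 without E12 ko 1 with an increase between 5.29 and 6.03 over the 4 leave-outs.

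**Figure D2:**
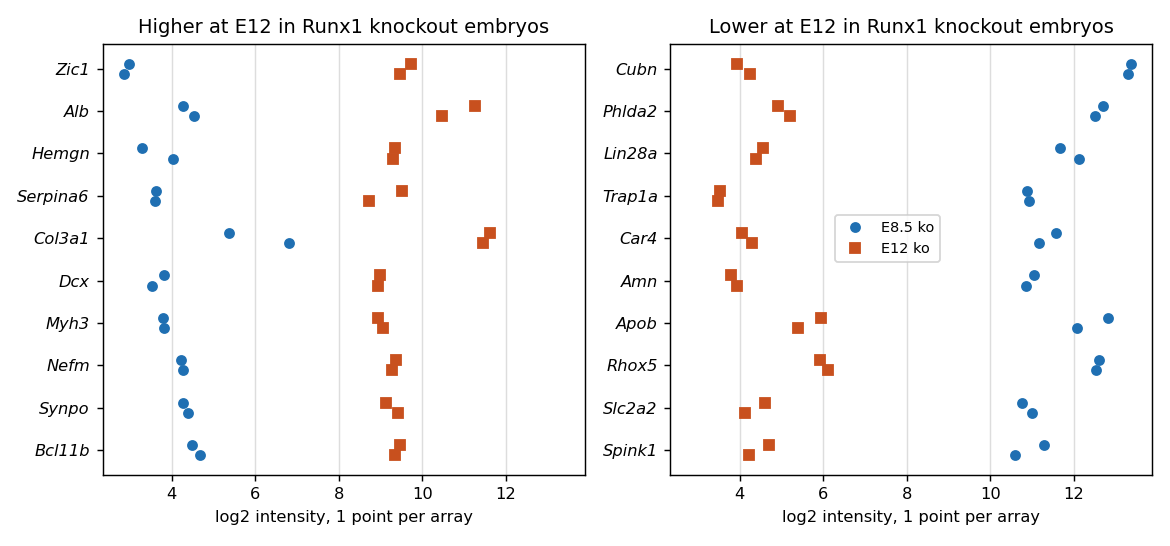
Log2 intensity (x axis) in each knockout array for the 10 genes with the greatest increase (left) and the greatest decrease (right) between E8.5 (circles) and E12 (squares), 1 point per array. The 20 genes were taken from called genes whose arrays did not overlap between stages, so that separation was set by the choice.

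Some genes crossed nearly the whole range of ranks. With cut-offs chosen after values were seen, 6 genes lay below percentile 50 in both E8.5 knockout arrays and above percentile 95 in both E12 arrays: Slc4a1, Hemgn, Nefm, Alb, Bcl11b and Zic1. They stand for red cells, neurons, liver and the dorsal neural tube. The reverse crossing was made by 7 genes: Spink1, Amn, Car4, Lin28a, Slc2a2, Cubn and Trap1a. All 13 were called on both scales.

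Genes of differentiated neurons rose together in knockout embryos. Of 42 measured genes of neuronal structure, synapse and axon, 33 rose and 0 fell, all 33 on both scales, against 9.43% of all genes. Their median rank went from percentile 49.6 to 85.5, and the median difference was 2.08 in log2 intensity and 29.1 percentile points in rank, beside 0.01 and 0.563 over all genes. Dcx (doublecortin, of migrating neurons) read 3.52 and 3.81 at E8.5 and 8.93 and 8.98 at E12, an increase of 5.29 ± 0.41 (SE, n = 2, adjusted p = 0.00112). Nefm, the medium neurofilament, read 4.28 and 4.23, then 9.27 and 9.37, an increase of 5.07 ± 0.38 (adjusted p = 0.00104). The SDs of Nefm at E8.5 and E12 were 0.04 and 0.07 in knockout and 0.58 and 0.70 in wild type, and its SE pools them. The E8.5 readings of both genes lay at mean percentiles of 12 and 29.5 and the E12 readings above percentile 94. Map2, which binds microtubules in dendrites, rose by 4.50, Nefl by 4.43 and Stmn3 by 4.01. Tubb3, the neuronal tubulin, read 4.74 and 5.14, then 8.0 and 8.34. Of the remaining marker genes, Snap25 of the synapse rose by 2.68 and Stmn2 by 3.51, but Snap25 kept its call in 1 and Stmn2 in 0 of the 4 fits that left out a knockout array (highest adjusted p 0.0594 and 0.116). Among the 42 genes there were 20 log2 calls without E12 ko 1, 21 without E12 ko 2, 26 without E8.5 ko 1 and 22 without E8.5 ko 2.

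Neural progenitor and neurogenic genes were mixed. Of 41 measured, 18 rose and 1 fell, with 13 and 0 on both scales, and the median rank difference was 9.49 points. Beside Zic1, given above, these included proneural and early neuronal factors. Nhlh2 read 3.42 and 3.23 at E8.5 and 7.5 and 7.64 at E12 (increase of 4.25), Neurod4 rose by 3.41 and Neurog1 by 2.58. Emx2, of the dorsal forebrain, rose by 2.23. Nes, the intermediate filament of neural stem cells, rose by 1.89. Sox2, a general factor of neural progenitors, read 8.84 and 8.78 at E8.5 and 8.69 and 8.64 at E12, and its difference of -0.15 was not called (adjusted p = 0.895). Fabp7, of radial glia, rose by 3.10 on the log2 scale but was not called on both scales and kept its call in 0 of the 4 fits with an array left out (highest adjusted p 0.0702). In the neural crest and peripheral glia list 10 of 23 rose, 8 of them on both scales, and 0 fell. Tfap2b, an early crest factor, rose by 3.15 and Ednrb, the endothelin receptor of migrating crest, by 2.95. Sox10, the glial and melanocyte factor, rose by 1.88, a call lost without E8.5 ko 1, E8.5 ko 2 or E12 ko 1 (highest adjusted p 0.0887). Tyrp1, an enzyme of pigment cells, rose by 1.69, with the direction shared by 1 of its 3 probe sets. Calls fell from 18 to 8, 8, 11 and 10 among progenitor genes and from 10 to 4, 6, 5 and 6 among crest genes without E12 ko 1, E12 ko 2, E8.5 ko 1 and E8.5 ko 2.

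Genes of differentiating skeletal muscle rose as well. Of 37 muscle genes 23 rose and 0 fell, 20 of them on both scales, with a median difference of 1.27 in log2 intensity and 14.8 points in rank. Myog, the factor that starts terminal muscle differentiation, read 3.94 and 4.15 at E8.5 and 7.48 and 7.79 at E12, an increase of 3.59 ± 0.36 (SE, n = 2, adjusted p = 0.00213). Myh3, the embryonic myosin heavy chain, read 3.82 and 3.80, then 9.05 and 8.94, an increase of 5.19 ± 0.57 (adjusted p = 0.00265). Acta1, skeletal actin, read 5.70 and 5.10, then 7.97 and 8.91. Tnnc2 (fast troponin C) rose by 3.75 and Meox2, of limb muscle precursors, by 3.39, and all 5 kept their calls in each fit with a knockout array left out. The list held 14, 13, 16 and 16 calls without E12 ko 1, E12 ko 2, E8.5 ko 1 and E8.5 ko 2.

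The 250 bases before the RefSeq start of Acta1 are shown because this gene, which rose, holds a perfect copy of the CArG box, the element bound by serum response factor. The stretch is chr8:123894776-123895025 of GRCm38.p6, minus strand, written 5′ to 3′, with the box in capitals, its first base 73 before the start.
Acta1: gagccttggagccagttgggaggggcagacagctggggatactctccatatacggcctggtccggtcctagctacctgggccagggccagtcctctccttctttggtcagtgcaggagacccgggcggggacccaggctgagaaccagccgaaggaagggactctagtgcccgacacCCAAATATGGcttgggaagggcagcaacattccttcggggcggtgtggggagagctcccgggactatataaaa
The motif was searched by its name on both strands, and 1.47% of 32851 promoters of the same length held it (482). The match describes the sequence only, and the motif was chosen after values were seen.

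Heart muscle genes were less uniform. Of 32, 11 rose and 3 fell, against 13.8% and 18.3% of all genes, with 8 and 2 on both scales. Myl2, the ventricular myosin light chain, read 5.53 and 5.07 at E8.5 and 8.29 and 8.84 at E12, an increase of 3.26 ± 0.25 (SE, n = 2, adjusted p = 0.00109). Nppa, the atrial natriuretic peptide, rose by 2.88. The transcription factor Gata4 read 6.07 and 7.61 at E8.5 and 5.0 and 4.90 at E12 and fell by 1.88 on the log2 scale, a call lost without E8.5 ko 2, E12 ko 1 or E12 ko 2 (range -2.65 to -1.12, highest adjusted p 0.145) and a direction shared by 1 of its 2 probe sets. Genes of the early heart tube were already high at E8.5: Tnnt2 read 9.26 and 8.34, then 9.12 and 9.44, and Myl7 read 8.81 and 8.31, then 7.45 and 7.95, with neither difference called. The 11 increases became 4, 2, 5 and 3 and the 3 decreases 0, 1, 3 and 1 without E12 ko 1, E12 ko 2, E8.5 ko 1 and E8.5 ko 2.

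Mesenchyme and matrix rose broadly. In the list of fibrillar matrix and mesenchyme 19 of 39 genes rose and 0 fell, 16 of them on both scales, and the median rank went from percentile 55.5 to 85.8. Col3a1, a fibrillar collagen, read 6.81 and 5.37 at E8.5 and 11.45 and 11.62 at E12, an increase of 5.44 ± 0.52 (SE, n = 2, adjusted p = 0.00189). The small proteoglycans of collagen fibrils followed, Dcn with an increase of 4.34 and Lum with 4.12. Mfap4 rose by 3.10 and Col14a1 by 3.15. In the cartilage and early skeleton list 12 of 28 genes rose and 1 fell, with 9 and 0 on both scales. Sox9, the factor that specifies cartilage, read 5.65 and 4.92, then 8.23 and 8.19, an increase of 2.93, and Col11a1 rose by 3.74. Col2a1, the main cartilage collagen, rose by 2.15, a call lost without E8.5 ko 2, E12 ko 1 or E12 ko 2 (range 1.89 to 2.41, highest adjusted p 0.0775). Matn1, of mature cartilage, read 3.87 and 4.48, then 3.50 and 3.67, and was not called. Basement membrane genes were called in both directions, with 1 of 15 higher and 4 lower, 1 and 2 on both scales. Over all genes 13.8% rose and 18.3% fell, 9.43% and 5.56% on both scales. After quantile normalization 6 of the 15 had a higher and 9 a lower reading at E12. Lamb1, a laminin chain of early basement membranes, fell by 2.09 on the log2 scale, whereas Lama2, the laminin chain of muscle, rose by 1.77. Without E12 ko 1, E12 ko 2, E8.5 ko 1 and E8.5 ko 2 the increases numbered 10, 9, 12 and 10 in mesenchyme and 3, 3, 4 and 5 in cartilage, and the basement membrane decreases numbered 1, 1, 3 and 2.

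Hox genes, which set position along the body and limb axes, rose in 12 of 33 cases and fell in 0, 10 of them on both scales. In blocks made after values were seen, the paralogue groups 1 to 4 held 3 increases among 10 genes (1 on both scales), groups 5 to 8 held 3 among 9 (3 on both scales) and groups 9 to 13 held 6 among 14 (6 on both scales). Their median rank differences were 10.3, 14.5 and 17.2 points, and the difference between blocks was not tested. Hoxd13, of the distal limb and genital bud, read 4.69 and 5.29 at E8.5 and 8.12 and 8.10 at E12, an increase of 3.12 ± 0.26 (SE, n = 2, adjusted p = 0.00129). Hoxc10 rose by 3.08, Hoxa5 by 3.0 and Hoxd10 by 2.45. Hoxb1, of the hindbrain, read 8.80 and 8.48, then 4.59 and 4.17. The knockout arrays of the stages do not overlap for Hoxb1, but its difference of -4.26 was not called (SE 1.58, adjusted p = 0.0961), and in wild type the E8.5 arrays read 3.81 and 9.49. The limb list held 8 increases and 1 decrease among 27 genes, 7 and 1 on both scales. Tbx15, Tbx18, Shox2 and Lhx9, transcription factors of limb and body wall mesenchyme, rose by 3.32, 2.59, 2.17 and 2.14. Leaving out any 1 knockout array left 6 increases among Hox genes and 5 in the limb list.

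Epithelial genes split into a group that rose and a group that fell. Of 31 epidermal and epithelial genes 5 rose and 10 fell, with 4 and 9 on both scales. The basal epidermal genes rose: Krt15 by 2.89, Krt5 by 2.55, Trp63, the factor that commits surface ectoderm to epidermis, by 2.50, and Krt14 by 1.58. The genes of simple epithelia fell. Krt8 read 12.64 and 12.64 at E8.5 and 7.82 and 7.95 at E12, Krt18 fell by 4.84, the adhesion gene Cdh1 fell by 3.42, Cldn7 fell by 3.78 and the desmosomal Dsg2 fell by 4.85 on the log2 scale. Each of these kept its call in every fit with a knockout array left out.

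Liver and plasma protein genes were called in both directions. The liver and plasma protein list of 44 genes held 10 increases and 21 decreases, 8 and 15 on both scales. Its greatest decreases were those of Cubn, Amn, Apob, Apoa4 and Lgals2. Cubn, Amn and Apob also belong to the visceral and parietal endoderm list below, so the decreases of these lists overlap. Alb, with the increase given above, Serpina6 (corticosteroid-binding globulin), which rose by 5.49, and Itih2, which rose by 3.01, lay between percentile 10.5 and 34.0 at E8.5. The 3 fibrinogen chains, secreted by hepatocytes, were lower: Fga fell by 2.37, Fgb fell by 2.06 and Fgg fell by 1.49 on the log2 scale, with Fga alone called on both scales. The calls of Fgb and Fgg were lost without any 1 knockout array and that of Fga without E12 ko 1 or E12 ko 2 (highest adjusted p 0.116, 0.12 and 0.0572). Several of the other genes that fell are also made by the extraembryonic visceral endoderm. Apob, the lipoprotein carrier, read 12.06 and 12.81 at E8.5 and 5.40 and 5.94 at E12 and fell by 6.77 on the log2 scale, Apoa4 by 6.08 and Apoa1 by 5.60. Ttr, the thyroxine carrier, read 13.60 and 13.73, then 8.63 and 9.56. Afp, made by both fetal liver and visceral endoderm, read 12.79 and 13.08, then 10.94 and 11.20, and moved from percentile 99.5 to 99.3. Its decrease of -1.86 was called on the log2 scale only and in 0 of the 4 fits that left out a knockout array (highest adjusted p 0.155). The liver list held 5, 5, 6 and 6 increases and 10, 11, 14 and 11 decreases without E12 ko 1, E12 ko 2, E8.5 ko 1 and E8.5 ko 2.

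Although the methods of the study name the embryo proper, genes of visceral and parietal endoderm were among the brightest in both E8.5 knockout arrays. The summed linear intensity of their 27 measured members was 72410 and 93014 at E8.5 against 6306 and 7677 at E12. Of these genes 18 fell and 0 rose, 13 of the decreases on both scales. Amn, the partner of Cubn in the uptake receptor, read 10.86 and 11.03, then 3.94 and 3.80, and fell by 7.08 on the log2 scale (SE 0.17, adjusted p = 6.1e-05). Slc2a2, a glucose transporter, fell by 6.51 and Sox17, an endoderm factor, by 3.95. In wild type the same list summed to 67110 and 87698 at E8.5 and to 7530 and 7599 at E12. The part that extraembryonic endoderm had in the decreases of liver, epithelial and gut genes (Vil1, of intestinal and visceral endoderm microvilli, fell by 4.53) was not tested. Trophoblast and decidua genes summed to 5029 and 2748 in the E8.5 knockout arrays and to 1065 and 1030 at the later stage, and 2 of the 30 rose and 3 fell, which became 0 and 1 to 2 without any 1 knockout array. Over all genes 13.8% rose and 18.3% fell. Prl8a2, a prolactin-like hormone of the decidua, read 8.49 and 7.81, then 4.46 and 4.76. The trophoblast marker Tpbpa read 4.24 and 4.21, then 4.91 and 5.16.

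Genes of the early embryo fell in part. In the pluripotency and early embryo list of 29 genes 9 fell, all on both scales, and 5 rose, 3 of them on both scales. Without any 1 knockout array 7 to 9 decreases and 0 to 1 increases were left. Pou5f1, the Oct4 factor, read 7.07 and 7.48 at E8.5 and 4.41 and 3.92 at E12, a decrease of -3.12 (SE 0.41, adjusted p = 0.00424). Dnmt3b, the de novo DNA methyltransferase of early tissues, fell by 5.10, L1td1 by 4.96 and Eras by 4.18 on the log2 scale. Lin28a, the RNA-binding protein that blocks maturation of let-7 microRNAs, read 12.11 and 11.67, then 4.38 and 4.57, and fell by 7.41 (SE 0.20, adjusted p = 6.1e-05), from percentile 98.6 to 30.6. In the list of Lin28 and let-7 target genes 7 of 12 fell, 5 of them on both scales, and 4 to 5 fell without any 1 knockout array. Trim71 and Prtg, both let-7 targets, had differences of -3.31 and -6.01. Its paralogue Lin28b read 3.41 and 3.43, then 3.28 and 3.59, and Igf2bp3 read 10.35 and 10.19, then 10.16 and 10.14. Igf2bp3 had a difference of -0.12 on the log2 scale and 1.00 after quantile normalization, so no direction is given for it. Hmga2 had a difference of -1.19 (adjusted p = 0.351).

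Genes of axis formation were called in both directions. Of 39 genes of primitive streak, tail bud and segmentation 7 fell and 2 rose, all on both scales. Over all genes 18.3% fell on the log2 scale, which is close to the share of this list, and 5.56% on both scales. Cdx2, the homeobox factor of posterior growth, read 8.63 and 8.79 at E8.5 and 4.39 and 4.45 at E12 and fell by 4.29 on the log2 scale. Cyp26a1, which degrades retinoic acid in the tail bud, fell by 2.40, whereas Cyp26b1, the related enzyme of limb and hindbrain, rose by 1.90. Lfng, a modifier of Notch in segmentation and in later tissues, rose by 1.64, a call lost without E12 ko 2 (adjusted p 0.0515). Nkx1-2 read 10.38 and 10.10, then 3.98 and 3.93. Its decrease of -6.28 kept its call in 0 of the 4 fits with a knockout array left out (highest adjusted p 0.136), and 1 of its 3 probe sets shared the direction. The clock and presomitic genes Hes7, Dll1, Tbx6 and Msgn1 were not called. The 7 decreases became 2, 3, 5 and 2 without E12 ko 1, E12 ko 2, E8.5 ko 1 and E8.5 ko 2, and the 2 increases 1, 0, 1 and 1. In the germ cell list 4 of 13 genes fell on both scales, against 5.56% of all genes, and 0 rose. The median log2 intensity of that list was 4.39 at E8.5 and 4.16 at E12, below the array medians. The log2 decreases of that list numbered 3 without E8.5 ko 1 and 1 without any other knockout array.

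Growth and metabolism genes were lower on the log2 scale, but mostly held their rank. Of 45 cytosolic ribosomal protein genes 38 fell on the log2 scale with a median difference of -1.56, and 2 of them on both scales. Their median rank was percentile 99.4 at both stages. DNA replication and cell division gave 34 decreases of 54 and 2 on both scales, and the respiratory chain 27 of 44 and 0 on both scales. Nucleolus and ribosome biogenesis differed from these in rank as well. There 29 of 30 genes fell, 11 on both scales, and the median rank went from percentile 96.3 to 91.1. Nolc1, a nucleolar chaperone, fell by 3.76, Srm, the spermidine synthase, by 3.0 and the ribosome maturation factor Nip7 fell by 2.69 on the log2 scale, the last in 1 of its 2 probe sets. Glucose transporters were among the clearest decreases. Slc2a3 read 13.85 and 13.77 at E8.5 and 8.70 and 8.97 at E12 and fell by 4.98 on the log2 scale (SE 0.16, adjusted p = 0.000134). Slc2a1 fell by 3.88, the hexokinase Hk2 by 2.36 and Pdk1, which restrains entry of pyruvate into mitochondria, by 2.59. Each of these 4 was also called on the rank scale. Without E12 ko 1, E12 ko 2, E8.5 ko 1 and E8.5 ko 2 the decreases numbered 11, 12, 21 and 15 in ribosome biogenesis, 8, 18, 29 and 15 among ribosomal proteins, 6, 8, 17 and 13 in replication and division and 5, 8, 22 and 6 in the respiratory chain. Those of the glycolysis and hypoxia list went from 15 to 7, 8, 10 and 11.

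**Figure D3:**
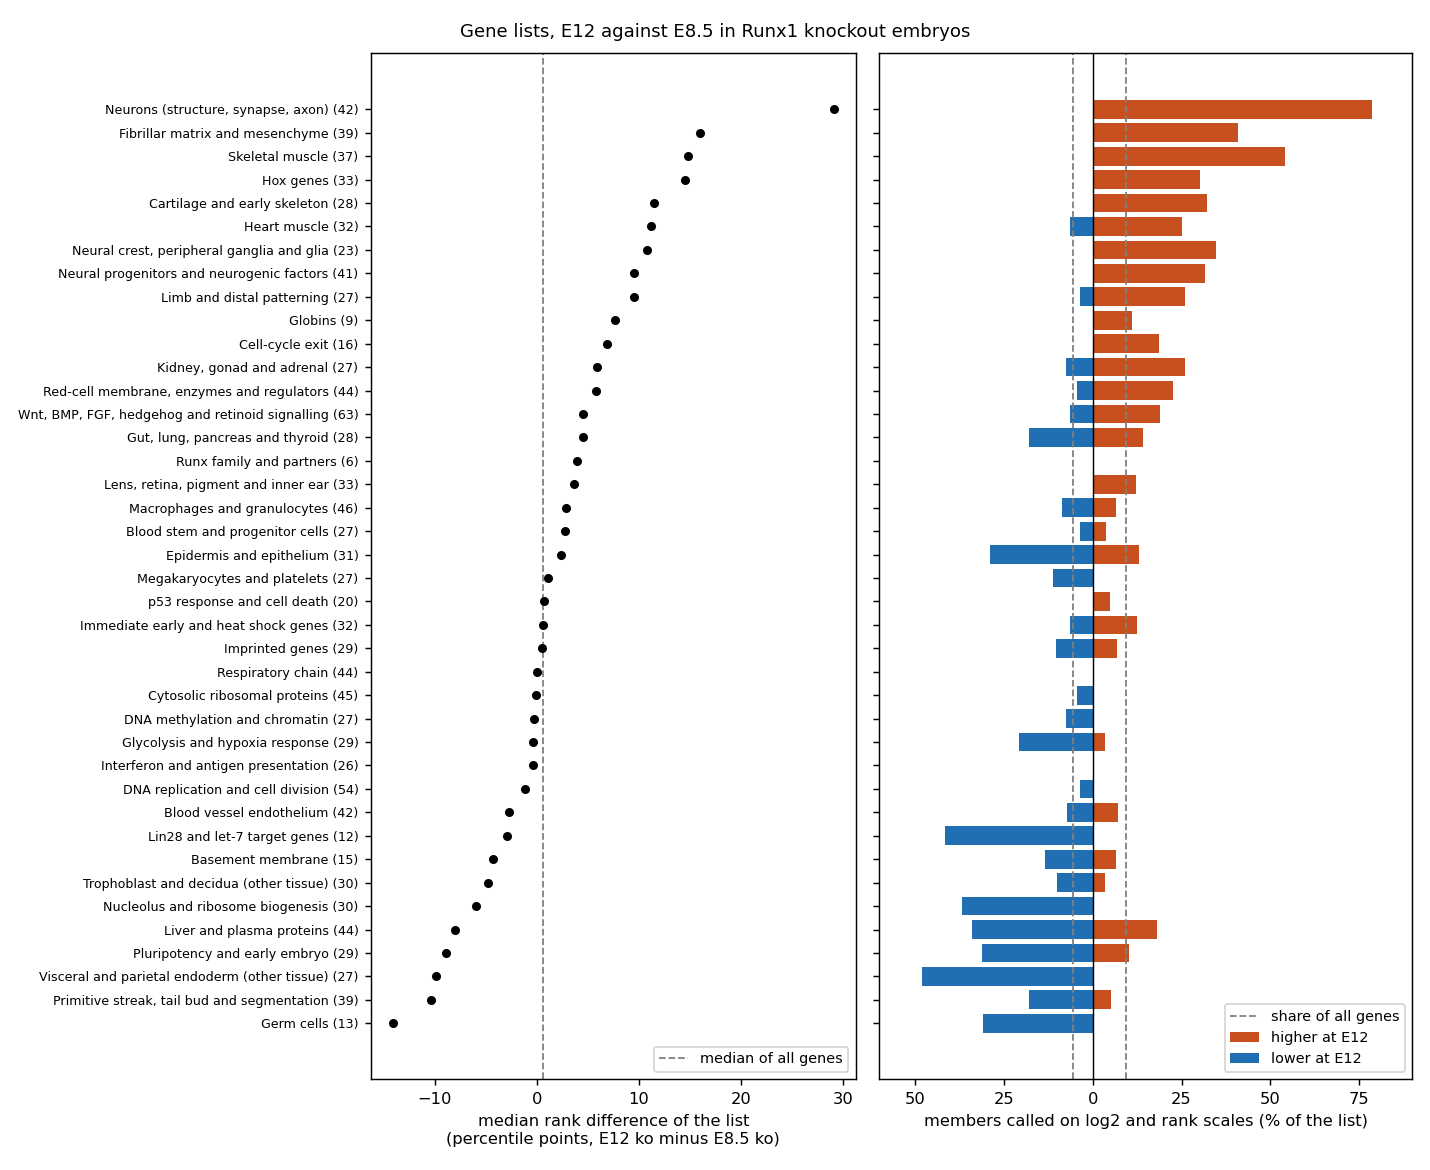
Median rank difference in percentile points (left) and share of members called on both scales as higher or lower at E12 (right, percent of the list) for each gene list in knockout embryos, with the number of measured genes in brackets and the value over all genes as dashed lines. The neuron list lies farthest to the right at 29.1 points, and the germ cell list farthest to the left at -14.1 points. The germ cell genes were dim, with a median log2 intensity of 4.39 at E8.5 and 4.16 at E12. Their median log2 difference was -0.35.

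Some red-cell genes rose in knockout embryos. Of 44 genes of red-cell membrane, enzymes and regulators 12 rose and 3 fell, with 10 and 2 on both scales. Rhd, a subunit of the Rhesus complex, read 4.94 and 4.51 at E8.5 and 8.56 and 8.92 at E12, an increase of 4.02 ± 0.46 (SE, n = 2, adjusted p = 0.00283). Bcl11a, a globin regulator that is also expressed in neurons, rose by 3.97. Slc4a1, the band 3 anion exchanger of the red-cell membrane, read 4.97 and 4.68, then 9.64 and 9.53. Its increase was 4.76 ± 0.87 (limma adjusted p = 0.0113). The SDs of Slc4a1 at E8.5 and E12 were 0.20 and 0.08 in knockout and 2.09 and 0.67 in wild type, and its SE pools them. Its call was lost without any 1 of the 4 knockout arrays, which leaves 1 array in a group. The same held for the increases of Ermap (4.02) and Alas2 (3.12), the first enzyme of erythroid haem synthesis. Among the embryonic globins, Hbb-y read 9.21 and 9.74, then 12.91 and 13.07, and Hba-x read 9.31 and 7.39, then 12.03 and 12.07, while Hbb-bh1 read 13.19 and 13.71, then 12.63 and 12.73. None of these 3 was called (adjusted p = 0.0957, 0.0645 and 0.386), and the direction for Hbb-bh1 turned after quantile normalization (0.64). Adult Hbb-b2 read 3.89 and 4.05, then 5.36 and 5.76, an increase of 1.59, though globin genes are near-identical copies whose probes may not separate them. The red-cell list held 5, 6, 6 and 6 increases and 1, 0, 3 and 0 decreases without E12 ko 1, E12 ko 2, E8.5 ko 1 and E8.5 ko 2.

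Megakaryocyte and myeloid genes were called in both directions in the knockout. Of 27 megakaryocyte and platelet genes 1 rose and 4 fell, against 13.8% and 18.3% of all genes. On both scales 0 rose and 3 fell, against 9.43% and 5.56% of all genes. Pf4, a chemokine stored in platelets, read 5.0 and 5.0 at E8.5 and 4.86 and 4.82 at E12, a difference of -0.16 that was not called (adjusted p = 0.597). Ppbp differed by 0.52, Tubb1, the platelet tubulin, by -0.63 and Mpo, the neutrophil peroxidase, by 0.47, with adjusted p of 0.142, 0.0696 and 0.236. Itga2b, the platelet integrin also carried by early blood progenitors, fell by 1.69 (adjusted p = 0.0145), a call lost without any 1 knockout array (highest adjusted p 0.0972). Of 46 macrophage and granulocyte genes 4 rose and 4 fell, with 3 and 4 on both scales, shares near the 9.43% and 5.56% of all genes. Ctss, a cathepsin of macrophages, read 4.46 and 4.47, then 4.5 and 4.59. Fcgr3, an antibody receptor of phagocytes, fell by 2.58, Ctsc, a cathepsin also found outside blood, by 4.93, and Laptm5 rose by 2.42, as 3 of its 5 probe sets did in direction. Csf1r, the receptor of the macrophage lineage, differed by 1.60 and Ptprc, common to white cells, by 0.30, neither of them called (adjusted p = 0.103 and 0.225). Without E12 ko 1, E12 ko 2, E8.5 ko 1 and E8.5 ko 2 the myeloid increases numbered 1, 1, 2 and 1, and the megakaryocyte decreases 0, 0, 2 and 0.

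Of 42 endothelial genes 4 rose and 6 fell, against 13.8% and 18.3% of all genes, with 3 and 3 on both scales. Without any 1 knockout array 2 increases and 2 to 3 decreases were left. Emcn, a sialomucin of veins and capillaries, rose by 1.73, and Nr2f2, the venous identity factor, by 1.52. Kdr, the main receptor for vascular endothelial growth factor, fell by 1.52 on the log2 scale but not on both scales. Etv2, the factor of the earliest endothelial progenitors, read 9.59 and 9.56, then 5.95 and 6.32. Its decrease of -3.44 (adjusted p = 0.0112) was lost without any 1 knockout array (highest adjusted p 0.0878). Among signalling genes 15 of 63 rose and 7 fell, 12 and 4 on both scales, and the Wnt antagonists Dkk2 and Wif1 rose by 3.63 and 2.37. The signalling list held 6, 6, 9 and 6 increases and 1, 2, 5 and 4 decreases without E12 ko 1, E12 ko 2, E8.5 ko 1 and E8.5 ko 2. Of 6 measured Runx family and partner genes 0 were called, Runx3 with a difference of 0.35.

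Most of the stage change was also found in wild-type embryos. Their arrays are separate from those of the knockout, but both tests used 1 estimate of spread per probe set from all 8 arrays. The calls of the genotypes are therefore not independent, nor is the overlap between them. With only the wild-type arrays in the fit, 2061 probe sets were called in wild type in place of 12525. In wild type 2031 genes (11.2%) rose and 1177 (6.47%) fell on both scales. Of the 1715 genes that rose on both scales in knockout, 1390 were also called higher in wild type, which is 81.1% of the knockout genes and 68.4% of the wild-type genes. Of the 1012 that fell, 756 were also called lower, or 74.7% and 64.2%. None of the 1715 or 1012 was called in the other direction on the log2 scale, and 1714 and 1008 had the same sign. On the log2 scale alone wild type called 1506 of the 1715 and 909 of the 1012 in the same direction, and 1421 and 924 without E8.5 wt 1, the array with trophoblast and decidua signal. Neuron genes gave 31 calls of 42 on both scales in wild type and 33 in knockout, and skeletal muscle genes 21 and 20 of 37. Axis genes gave 2 decreases of 39 on both scales in wild type and 7 in knockout, and germ cell genes 1 and 4 of 13. The median log2 intensity of the axis list was 4.90 in E8.5 wt 1 and 6.84 in E8.5 wt 2. In the E8.5 knockout arrays it was 6.94 and 6.70. Whether these counts differ between genotypes was not tested. Pou5f1 changed by -0.45 in wild type and -3.12 in knockout, and the difference between genotypes was not called (limma adjusted p = 0.9997). Zic1 rose by 6.20 in wild type, Alb by 5.75 and Nefm by 5.21, and Cubn fell by 9.04 on the log2 scale.

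The test of the difference between genotypes in stage change called 2 of 18193 genes (0.011%), both lower in the knockout. An unadjusted limma p below 0.05 was found for 842 of 45037 probe sets, a smaller share than 0.05 of them. With 2 arrays a group, the lack of a call does not show that a gene changed alike in both genotypes. Pf4 rose by 5.37 in wild type, from 5.27 and 5.08 at E8.5 to 10.31 and 10.79 at E12, and differed by -0.16 in knockout. That difference between changes was -5.53 (limma adjusted p = 0.0202). Ctss rose by 3.51 in wild type, from 4.43 and 4.22 to 7.86 and 7.80, and differed by 0.08 in knockout, a difference between changes of -3.43 (adjusted p = 0.0381). On the rank scale the adjusted p was 0.0121 for Pf4 and 0.0597 for Ctss. With the replicate number as a block both calls were lost (adjusted p = 0.138 for Pf4 and 0.211 for Ctss). Both calls needed all 4 knockout arrays. Without E8.5 ko 1, E8.5 ko 2, E12 ko 1 and E12 ko 2 the adjusted p was 0.412, 0.41, 0.494 and 0.517 for Pf4 and 0.619, 0.624, 0.829 and 0.723 for Ctss. Without E12 wt 2 that of Pf4 was 0.0778, and without E8.5 wt 1, E12 wt 1 and E12 wt 2 that of Ctss was 0.0508, 0.436 and 0.274. The size of the difference stayed between -5.77 and -5.29 for Pf4 and between -3.53 and -3.33 for Ctss over the 8 leave-outs. Ppbp, Tubb1 and Mpo rose in wild type by 3.53, 2.72 and 3.82, and for them the difference between genotypes was not called (adjusted p = 0.373, 0.188 and 0.387). On both scales the megakaryocyte list held 9 increases and 0 decreases in wild type against 0 and 3 in knockout, and the myeloid list 16 and 1 against 3 and 4, and the difference between genotypes was tested gene by gene only. Summed linear intensity of the 27 megakaryocyte genes was 4431 and 4603 for wild type at E12, against 1302 and 1406 for knockout, and that of the 46 myeloid genes was 6521 and 6009 against 2189 and 2246. Red-cell genes summed to 26173 and 41002 in wild type and to 25395 and 26840 in knockout at E12.

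**Figure D4:**
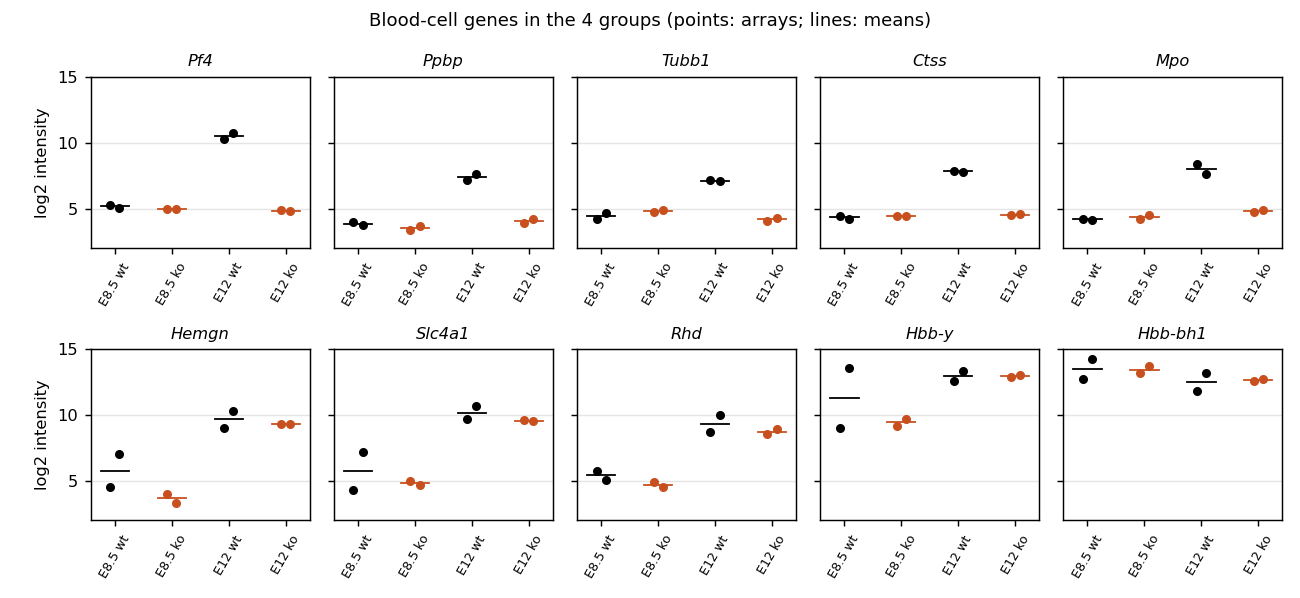
Log2 intensity of 10 blood-cell genes in the 4 groups, with points for arrays and lines for group means (wild type in black, knockout in orange). The E12 knockout arrays of Pf4 (4.86 and 4.82) and Ctss (4.5 and 4.59) lie near both E8.5 groups, while those of Hemgn, Slc4a1, Rhd and Hbb-y lie near E12 wild type.

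The 250 bases before the RefSeq starts of Pf4 and Ctss (GRCm38.p6, plus strand, 5′ to 3′) are shown because the expression change of these genes differed between genotypes. Neither holds TGTGGT, a core RUNX motif, on either strand, and 14.0% of 32851 promoters of this length do (4614). That search was chosen after values were seen, and says only that these letters are not in this window.
Pf4 (chr5:90772185-90772434): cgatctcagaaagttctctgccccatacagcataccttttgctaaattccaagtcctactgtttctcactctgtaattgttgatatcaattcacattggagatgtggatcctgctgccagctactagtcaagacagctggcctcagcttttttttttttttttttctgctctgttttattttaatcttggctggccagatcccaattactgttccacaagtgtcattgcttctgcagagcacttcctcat
Ctss (chr3:95526536-95526785): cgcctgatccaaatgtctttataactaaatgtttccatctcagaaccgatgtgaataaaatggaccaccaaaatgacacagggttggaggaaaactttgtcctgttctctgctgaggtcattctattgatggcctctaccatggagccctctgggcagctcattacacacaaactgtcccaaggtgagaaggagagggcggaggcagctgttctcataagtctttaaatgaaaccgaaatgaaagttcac

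**Figure D5:**
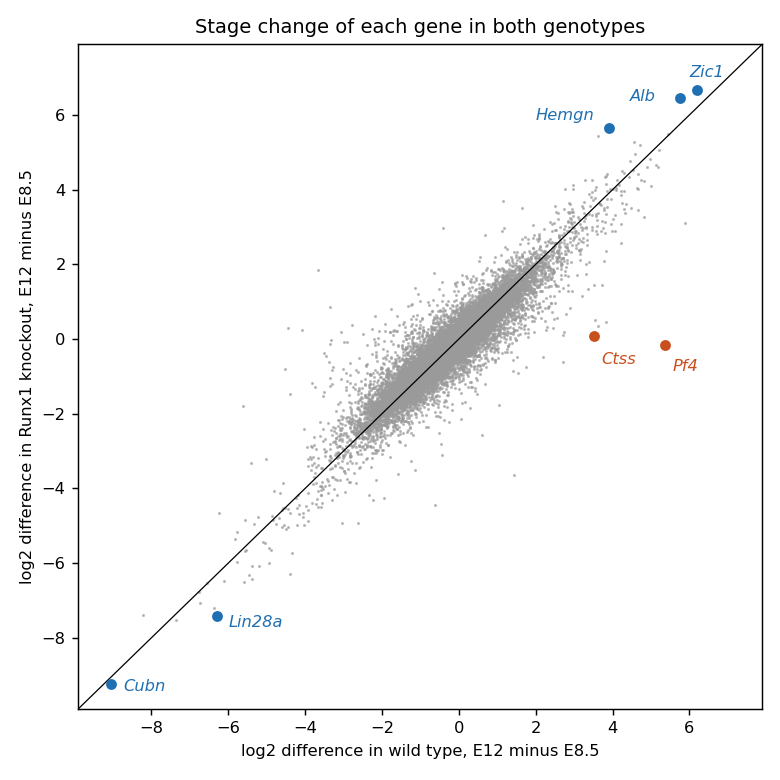
Log2 difference between E12 and E8.5 for each of 18193 genes in wild type (x axis) and Runx1 knockout (y axis), 1 point per gene, with the line of equal change. Pf4 (5.37 in wild type, -0.16 in knockout) and Ctss (3.51 and 0.08), the 2 genes called in the test between genotypes, lie below the line.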

How the data were processed

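The authors made 1 value per probe set by Robust Multi-array Analysis, and each deposited column holds the intensity of 1 array on the linear scale. The sources used here do not say whether all 8 arrays went through normalization jointly, nor which software version made them, and no detection calls were used. Groups and replicate numbers came from the sample titles.

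The log2 of each intensity was taken with no pseudocount (value added: 0) and no filter on dim probe sets. Of 45101 probe sets, 64 controls were left out and 45037 tested. Names came from the platform annotation, updated with RefSeq (GRCm38.p6): 34945 probe sets had 1 symbol, 932 several and 9160 none. The probe set with the highest mean over all arrays stood for each of 18193 genes.

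The linear models used limma 3.58.1 under R 4.3.3 (lmFit, eBayes; 1 mean per group, all 8 arrays in 1 fit) and were tested on simulated data before use. Adjusted p-values are Benjamini-Hochberg values over all probe sets. Percentile ranks were taken within arrays, and ranks turned to normal scores were fitted as an alternative. Figures were drawn with matplotlib 3.10.9. The number of arrays limits the precision.

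Named were the first 10 genes each way in the knockout among those whose arrays did not overlap, the first 5 each way in the test between genotypes, up to 5 called members each way of each of 41 lists (1260 of 1379 entries measured) or, with none called, the 2 of highest absolute t, all members of 4 short lists, and single blood and marker genes. Nes, Krt14 and other members named beside them were chosen after their values were seen. The comparison, the lists and the genes were chosen with earlier results of these data known.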

Additional observations from a re-analysis of the deposited data

Results flagged for a closer look

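The stage change differed between knockout and wild type for 2 genes in a test of the difference itself. For Pf4 the change in knockout minus that in wild type was -5.53, and for Ctss it was -3.43 (log2, limma, adjusted p = 0.0202 and 0.0381). In both, the 2 E12 wild-type arrays were above the other 6 arrays. No group had enough arrays for a test of single outlying arrays.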

How the results depend on the processing

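In knockout the number of called probe sets, 11539, was 7428 with ranks in place of intensities, 19848 with only the 4 knockout arrays in the fit and 19889 with array weights. Leaving out 1 array at a time gave 2323 to 16078, with 2323 without E12 ko 1, 2813 without E12 ko 2, 3534 without E8.5 ko 2 and 5502 without E8.5 ko 1. In wild type the 12525 calls became 2061 with only the wild-type arrays and 7971 with array weights, and 6122 to 14204 without 1 array (6122 without E12 wt 1). The 2 calls between genotypes became 1 with brighter probe sets only, 8 with a trended and robust spread, 0 with the replicate block, 310 at the threshold of the methods (an absolute t above 3, unadjusted), and 0 to 718 without 1 array, 718 of them without E8.5 wt 2. The share of knockout calls that were higher, 45.1%, was 28.3% with medians set equal, which moved the median difference of all probe sets from 0.03 to -0.18.

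The deviations of same-numbered knockout arrays of the stages were close to unrelated (r = -0.105). Other pairs of groups gave r = 0.372 (both genotypes at E8.5), 0.173 (both at E12), 0.0756 (wild type at both stages), -0.121 and -0.109. The numbers were not taken to pair the arrays across stages. At E8.5, same-numbered arrays of the genotypes shared part of their deviation, and the calls between genotypes were lost under the replicate block. With the replicate block 11265 probe sets were called, and 11105 with the E12 numbers crossed. Among the 266 named genes, 254 kept their direction and side of the threshold under the block, 11 lost and 1 gained a call. Of the 226 named and called, 108 kept the call without each knockout array in turn, 60 lost it in all 4 fits, and 0 changed sign.

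Uncalled genes changed sign in 27 values. After quantile normalization these were Arid3a 0.064, Cbfa2t3 -0.082, Cbfb 0.54, Ctss -0.13, Hbb-bh1 0.64, Igf2bp3 1.00 (there called higher, adjusted p = 0.0189) and Lin28b -0.039. With rank scores they were Arid3a 0.044, Cbfa2t3 -0.077, Cbfb 0.38, Ctss -0.20, Hbb-bh1 0.91, Igf2bp3 0.70 and Lin28b -0.13. With medians set equal they were Cbfa2t2 -0.20, Cbfa2t3 -0.10, Ctss -0.13 and Lin28b -0.19. Over the fits without 1 knockout array the ranges were Arid3a -0.54 to 0.12, Cbfa2t2 -0.023 to 0.053, Lin28b -0.14 to 0.17, Myb -0.73 to 0.56, Tsix -0.30 to 0.042, Uty -0.83 to 0.61 and Xist -0.66 to 4.34. The median difference of imprinted genes was -0.70 on the log2 scale and 0.31 after quantile normalization, and that of epidermal and epithelial genes, 0.23, was -0.26 without E8.5 ko 2. The causes of these changes were not tested. With 2 arrays a group and no known common scaling, the level of a gene at E12 relative to E8.5 is limited by both.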
